A study of Homo sapiens with 8 samples.

Results

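The genes described are 10 components of the bone morphogenetic protein (BMP) pathway: the ligands BMP2, BMP4 and BMP6, the type I receptors ACVR1 and BMPR1A, the type II receptors ACVR2A and BMPR2, and the signal carriers SMAD1, SMAD5 and SMAD4. They were taken as a named list, with every probe set that the array's annotation gives them. No threshold on their values enters that rule, but the list was drawn up with earlier results of these data known. The annotation used here lists 28 probe sets for 9 of the 10 genes, out of 54613 probe sets that are not array controls. BMPR1A has none under its symbol and was not analysed here.

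The cells were HT1080, a line grown from a human fibrosarcoma, and their RNA was read on Affymetrix U133 Plus 2.0 arrays, on which a transcript is matched by 1 or more sets of short probes. The 8 arrays covered 8 conditions of 18 h each. Under normal growth conditions the cells received nothing (control), 10 µM compound C (CC), 10 µM versipelostatin (VST) or 100 µM phenformin (Phen). Under stress conditions they received 10 mM 2-deoxyglucose (2DG), either alone or together with one compound at the same dose (2DG+CC, 2DG+VST and 2DG+Phen). 2DG blocks the use of glucose and sets off the unfolded protein response. CC, also named dorsomorphin, inhibits the kinase AMPK as well as BMP type I receptors, VST is a macrocycle from a microbe, and Phen is a biguanide. Whether CC acts on the stress response through the BMP pathway was one question of the study, and the arrays give the transcript side of that pathway. Each condition has 1 array of 1 cell line, so no difference below has a replicate check, and none carries an error or a p-value.

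A BMP dimer brings together type I and type II receptors, which are serine/threonine kinases. The type II receptor activates the type I receptor, and this phosphorylates SMAD1, SMAD5 or SMAD9, which enter the nucleus with SMAD4 and act on target genes such as the ID family of transcriptional inhibitors. The pathway is best known for bone formation, and ACVR2A is shared with activins and SMAD4 with TGF-β.

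All values are log2 intensities made by the authors with RMA, and a difference is taken as the treated array less its reference, 1 being 2-fold. A probe set counted as expressed when it reached a log2 value of 6 on at least 1 array, which held for 15503 probe sets naming 8429 genes. The median of each array over its non-control probe sets, between 3.12 and 3.28, was taken as background, and a difference from a value under it is a bound. Of the 28 probe sets, 13 were expressed, in 6 genes: ACVR1, ACVR2A, BMPR2, SMAD1, SMAD5 and SMAD4. Where a gene had several, the probe set with the highest mean stands for it, here called the brightest. The mesenchymal markers VIM, CDH2, SPARC, FN1 and LGALS1 were expressed (5 of 7, without THY1 and S100A4), VIM at 13.24 to 13.65. None of 6 epithelial markers was expressed, and of 4 blood cell markers 1 was, CD79A, at 5.08 to 6.26. The hybridization controls read higher than on the control array by 0.21 in 2DG, 0.75 in 2DG+CC, 0.53 in 2DG+VST and 0.58 in 2DG+Phen. The poly-A control transcripts, which are added to the RNA before labelling, read higher by 0.35 in 2DG, 1.22 in 2DG+CC, 0.85 in 2DG+VST and 0.67 in 2DG+Phen. Scaling on them lowers every difference between a compound in 2DG and 2DG alone, by 0.87 with CC, 0.50 with VST and 0.32 with Phen, and a positive difference smaller than that turns negative.

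Upstream sequence is shown for ACVR1, BMPR2 and SMAD5, whose brightest probe sets all read lower in 2DG with each compound than in 2DG alone. The windows held for SMAD1, which also read lower, lie inside annotated transcripts and are not shown. The 250 bases before the outermost annotated start of each come from RefSeq (GRCh38.p14), written 5′ to 3′ on the strand of the gene. Capitals mark GC boxes (GGGCGG on either strand) and CCAAT boxes (CCAAT on either strand).
ACVR1 (chr2:157876331-157876580, minus strand): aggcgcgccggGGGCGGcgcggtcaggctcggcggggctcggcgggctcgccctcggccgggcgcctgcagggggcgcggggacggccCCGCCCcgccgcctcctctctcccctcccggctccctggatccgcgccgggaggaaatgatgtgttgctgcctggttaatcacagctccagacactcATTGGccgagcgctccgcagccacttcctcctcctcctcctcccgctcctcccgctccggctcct
BMPR2 (chr2:202376077-202376326, plus strand): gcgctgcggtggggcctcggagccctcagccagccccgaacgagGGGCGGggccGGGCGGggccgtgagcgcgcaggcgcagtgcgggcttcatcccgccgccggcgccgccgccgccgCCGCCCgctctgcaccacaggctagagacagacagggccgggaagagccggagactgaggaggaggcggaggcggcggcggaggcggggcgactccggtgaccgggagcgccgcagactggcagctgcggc
SMAD5 (chr5:136132595-136132844, plus strand): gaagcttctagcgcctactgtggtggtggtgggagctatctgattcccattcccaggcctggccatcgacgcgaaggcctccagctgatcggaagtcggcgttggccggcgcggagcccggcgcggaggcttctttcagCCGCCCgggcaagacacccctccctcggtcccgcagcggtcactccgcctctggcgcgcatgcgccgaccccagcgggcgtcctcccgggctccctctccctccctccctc

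The ACVR1 window held 2 GC boxes and 1 CCAAT box, the BMPR2 window 3 GC boxes and the SMAD5 window 1 GC box. The GC-rich BMP element (GGCGCC, in 16.4% of all windows and not marked in capitals) was found 1 time each in those of ACVR1 and BMPR2. Of all 35116 windows of 250 bases, which include windows that are not at an outermost start, 42.6% held a GC box and 32.0% a CCAAT box. The cAMP response element (TGACGTCA, in 1.65% of windows), the core of ATF4 sites (TGATGNAA, 3.14%) and the ER stress element (a CCAAT box, 9 free bases and CCACG, 0.0740%) were in none of these 3 windows on either strand.

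The ligands were low in every condition. BMP2, a ligand that drives bone formation, read 2.26 in control, 2.07 with CC, 2.15 with VST, 2.26 with Phen, 2.17 in 2DG, 2.86 in 2DG+CC, 2.39 in 2DG+VST and 2.62 in 2DG+Phen on its brightest probe set. Both of its probe sets were under background on all 8 arrays, so no difference is given. BMP4, which acts in mesoderm and limb development, read 3.26 to 3.88, above background on all 8 arrays and far under the limit of 6.

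BMP6, a ligand known for its control of iron through hepcidin, gave the highest reading of its 3 probe sets on 206176_at, and the other 2 were under background on all arrays. It read 5.34 in control, 5.74 with CC, 5.42 with VST, 4.71 with Phen, 5.01 in 2DG, 4.46 in 2DG+CC, 4.53 in 2DG+VST and 4.72 in 2DG+Phen. The 4 arrays with 2DG and the Phen array were the low ones. The largest of its differences was −1.28, between 2DG+CC and CC alone. Among 10 other BMP and GDF ligands measured, none was expressed.

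**Figure D1:**
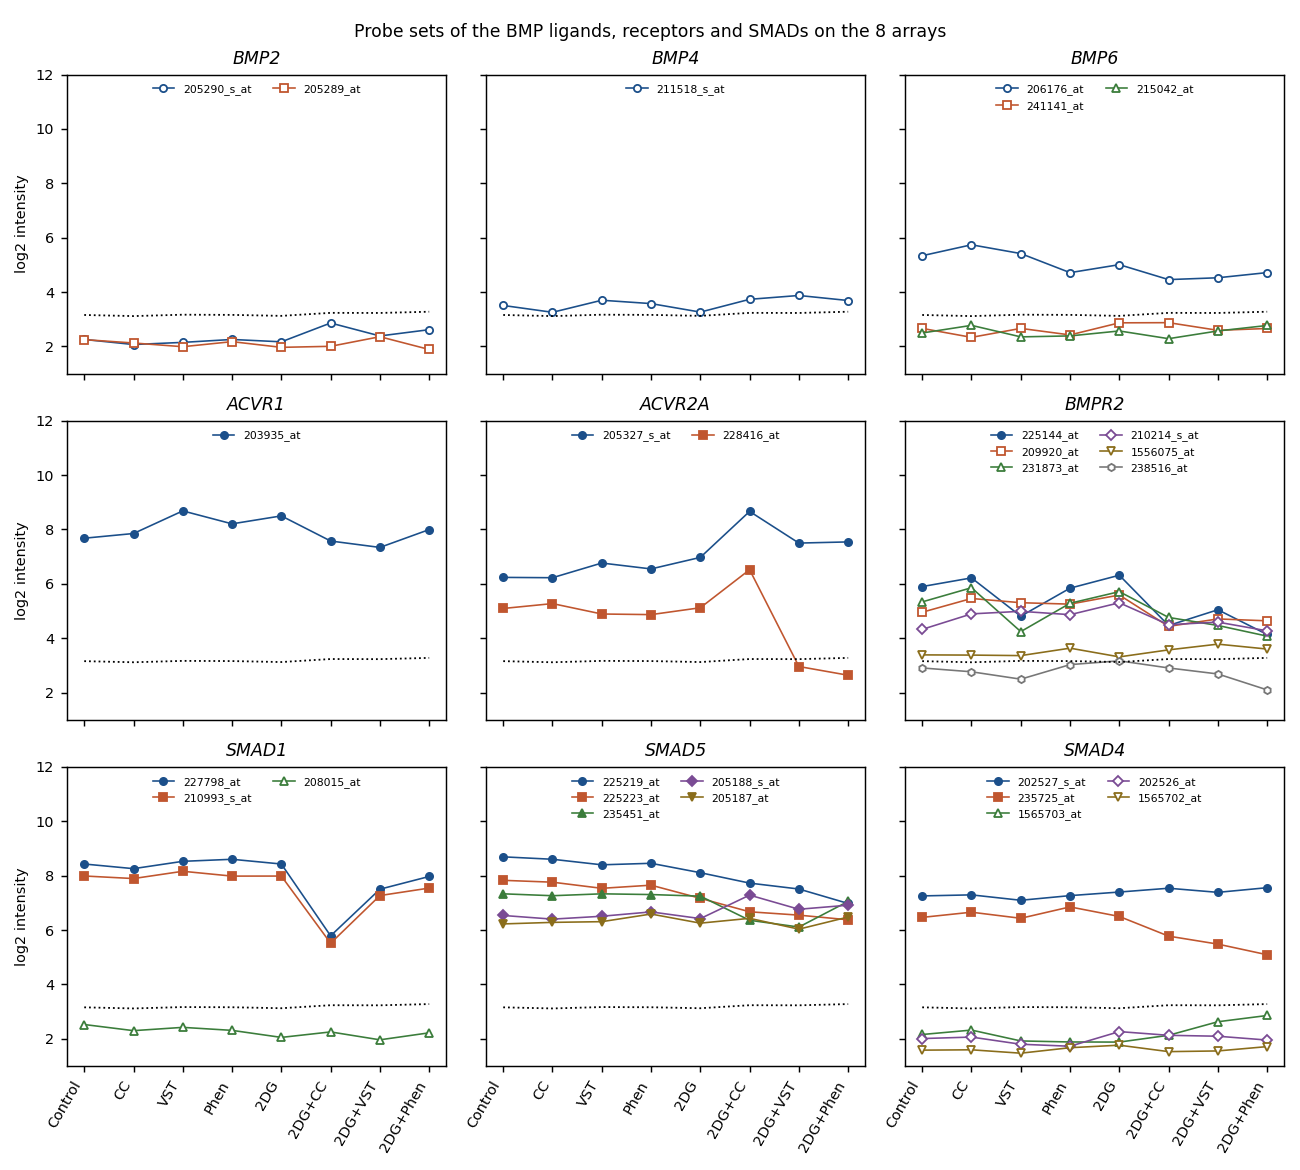
Log2 intensity (vertical axis) of every probe set of the 9 measured genes on the 8 arrays (horizontal axis, 1 array per condition). Filled symbols are expressed probe sets, open symbols are not, and the dotted line is the background of each array. The ligands lie low throughout, SMAD1 is lowest in 2DG+CC at 5.79 on its brightest probe set, and ACVR2A is highest there at 8.67.

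Among the receptors, ACVR1 (also called ALK2), a type I receptor, was measured by 1 probe set. It read 7.68 in control, 7.85 with CC, 8.68 with VST, 8.21 with Phen, 8.50 in 2DG, 7.58 in 2DG+CC, 7.34 in 2DG+VST and 8.00 in 2DG+Phen. The highest values were those with VST or 2DG singly and the lowest was that with both together. The difference from control was 0.82 in 2DG, 0.17 with CC, 1.005 with VST and 0.53 with Phen. From 2DG alone it was −0.92 with CC, −1.16 with VST and −0.50 with Phen.

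BMPR2, the type II receptor that is mutated in heritable pulmonary arterial hypertension, has 6 probe sets, of which only 225144_at was expressed, through the arrays with CC and with 2DG alone. It read 5.90 in control, 6.22 with CC, 4.81 with VST, 5.84 with Phen, 6.32 in 2DG, 4.47 in 2DG+CC, 5.05 in 2DG+VST and 4.14 in 2DG+Phen. The VST array and the 3 arrays with 2DG and a compound were the low ones. The difference from 2DG alone was −1.85 with CC, −1.27 with VST and −2.18 with Phen.

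The same direction was read on 3 of the other BMPR2 probe sets, which lay under the limit of 6 and above background. For 209920_at the differences from 2DG alone, in the order CC, VST and Phen, were −1.15, −0.88 and −0.95, for 231873_at −0.95, −1.24 and −1.64, and for 210214_s_at −0.81, −0.71 and −1.03. The remaining 2 were near or under background, and 1556075_at read 0.26, 0.47 and 0.29. With VST in normal medium the probe sets differed among themselves. Against control, 225144_at and 231873_at both gave −1.09, but 209920_at gave 0.35 and 210214_s_at 0.66.

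ACVR2A, a type II receptor for activins and BMPs, read 6.24 in control, 6.23 with CC, 6.77 with VST, 6.55 with Phen, 6.97 in 2DG, 8.67 in 2DG+CC, 7.50 in 2DG+VST and 7.54 in 2DG+Phen on 205327_s_at. All 4 arrays with 2DG were above the 4 without it, an order that does not hold for 2DG alone or with VST when the arrays are scaled on the poly-A controls, and the highest was 2DG+CC. The difference was 0.74 between 2DG and control, and 1.69 between 2DG+CC and 2DG alone, or 0.82 with the arrays scaled on the poly-A controls.

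The other ACVR2A probe set, 228416_at, reached 6 only in 2DG+CC. It read 5.10 in control, 5.27 with CC, 4.89 with VST, 4.87 with Phen, 5.12 in 2DG, 6.52 in 2DG+CC, 2.96 in 2DG+VST and 2.64 in 2DG+Phen. The last 2 values were under background, so that the difference from 2DG alone was −1.89 or lower with VST and −1.84 or lower with Phen. On 205327_s_at the same differences were 0.53 and 0.57, the opposite sign. Of the 3 comparisons with 2DG alone, that of 2DG+CC was the only one in which both probe sets read higher (1.69 and 1.40). Since 228416_at is in the set only through its high reading in 2DG+CC, the second value is no separate support for the first.

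SMAD1, which the BMP type I receptors phosphorylate, read 8.43 in control, 8.26 with CC, 8.53 with VST, 8.60 with Phen, 8.43 in 2DG, 5.79 in 2DG+CC, 7.50 in 2DG+VST and 7.97 in 2DG+Phen on 227798_at. The 5 arrays that did not combine 2DG with a compound lay within 8.26 to 8.60, and 2DG+CC was the lowest. Its difference from 2DG alone was −2.64, a 6.24-fold lower intensity, against −0.93 with VST and −0.46 with Phen. In normal medium CC gave −0.17 against control. A lower reading in RNA from a whole culture may be fewer cells carrying the transcript or less of it in each cell, and these cannot be told apart here.

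The second expressed SMAD1 probe set, 210993_s_at, read 7.99 in control, 7.89 with CC, 8.16 with VST, 7.98 with Phen, 7.99 in 2DG, 5.52 in 2DG+CC, 7.27 in 2DG+VST and 7.54 in 2DG+Phen. Its differences from 2DG alone were −2.47, −0.72 and −0.44 in the order CC, VST and Phen. The third, 208015_at, was under background on all arrays. Between 2DG+CC and 2DG alone, 594 of the 15503 expressed probe sets had a lower difference than the brightest SMAD1 probe set. The 5th and 95th percentiles of all differences in that comparison were −2.43 and 1.57, so that both SMAD1 probe sets lay below the first and ACVR2A, on its brightest, above the second.

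SMAD5, the close relative of SMAD1, had 5 expressed probe sets, and they did not move alike. The brightest, 225219_at, read 8.69 in control, 8.60 with CC, 8.40 with VST, 8.46 with Phen, 8.11 in 2DG, 7.73 in 2DG+CC, 7.51 in 2DG+VST and 6.98 in 2DG+Phen. All 4 arrays with 2DG lay under the 4 without it. The difference was −0.58 between 2DG and control, and −0.38, −0.60 and −1.13 from 2DG alone in 2DG+CC, 2DG+VST and 2DG+Phen.

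The next SMAD5 probe set, 225223_at, gave −0.66 in 2DG and then −0.50, −0.62 and −0.79 with the compounds in the same order. On 235451_at the values against 2DG alone were −0.89, −1.14 and −0.19. On 205188_s_at they were 0.86, 0.34 and 0.49, of which the first 2 turn negative with poly-A scaling, and on 205187_at 0.18, −0.22 and 0.23. So 3 of the 5 were lower in 2DG with each compound and 205188_s_at was higher with each in the values as deposited.

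SMAD4, the common partner of the receptor-activated SMADs, varied least of the 6 expressed genes on its brightest probe set. This one, 202527_s_at, read 7.26 in control, 7.29 with CC, 7.10 with VST, 7.27 with Phen, 7.40 in 2DG, 7.54 in 2DG+CC, 7.39 in 2DG+VST and 7.56 in 2DG+Phen, a span of 0.46, and with poly-A scaling all 3 arrays with 2DG and a compound lie under 2DG alone. The second, 235725_at, read 6.47, 6.66, 6.43 and 6.85 on the arrays without 2DG, in the same order, then 6.50 in 2DG and 5.78, 5.48 and 5.09 in 2DG+CC, 2DG+VST and 2DG+Phen. There the 3 arrays with 2DG and a compound were the lowest, by −0.72, −1.02 and −1.41 from 2DG alone, where the brightest probe set gave 0.14, −0.01 and 0.16. The other 3 SMAD4 probe sets were under background on every array.

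**Figure D2:**
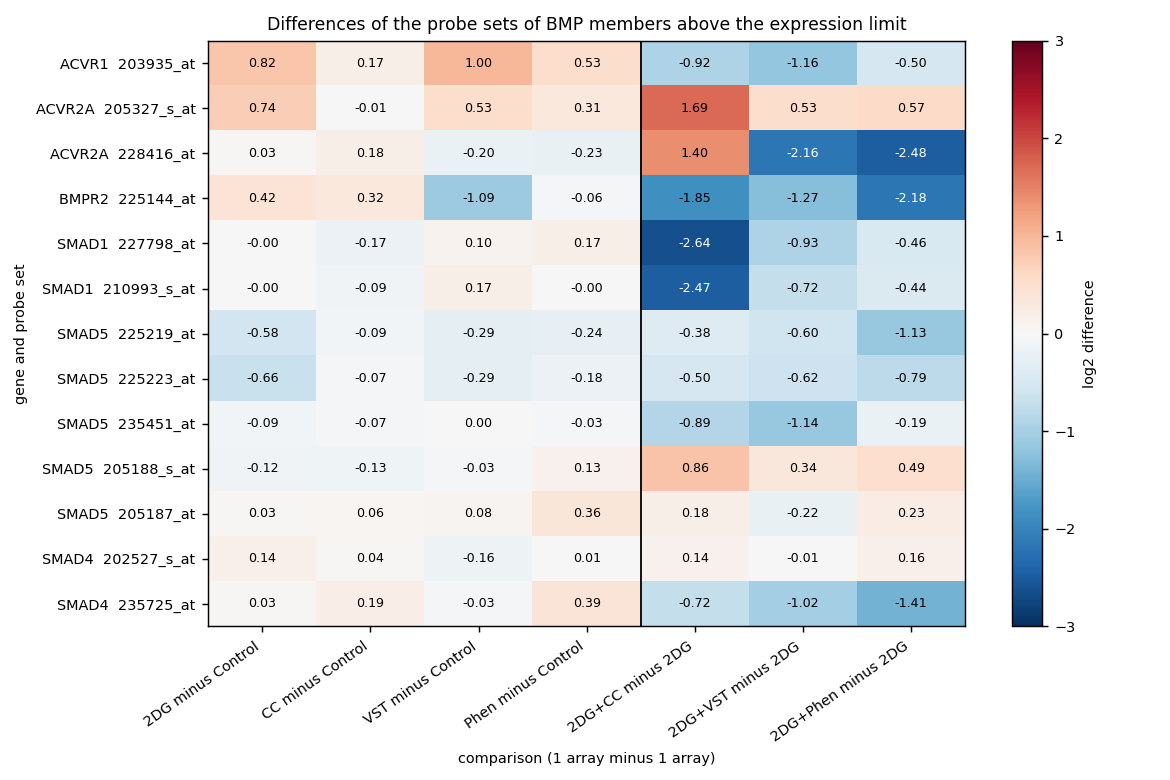
Log2 difference (colour and printed value) of the 13 expressed probe sets (rows, with gene) in the 4 comparisons with control and, right of the line, the 3 comparisons of a compound in 2DG with 2DG alone. Each is 1 array minus 1 array, values are as measured, so that the −2.16 and −2.48 of ACVR2A are bounds in the text, and most differences past 2-fold are on the right, with −2.64 for SMAD1 at one end and 1.69 for ACVR2A at the other.

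Counted over these 13 probe sets, past 2-fold differences were few in the comparisons with control and more in those within 2DG, as they were over all expressed probe sets. Between 2DG and control none was at least 2-fold higher (3.19% of all expressed probe sets were) and none lower (2.53%). The counts were also 0 and 0 for CC (4.32% higher and 2.86% lower) and for Phen (2.75% and 3.09%). With VST 1 was higher, ACVR1 (2.86%), and 1 lower, BMPR2 (3.37%). BMPR2 and the second ACVR2A probe set entered the count through the few arrays on which they reached the limit.

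Against 2DG alone, 2DG+CC had 2 of the 13 at least 2-fold higher, both of ACVR2A (11.0% of all), and 3 lower, those of SMAD1 and BMPR2 (23.0%). Of the ACVR2A probe sets, 228416_at was expressed only through the 2DG+CC array. With VST none was higher (6.95%) and 5 were lower (18.3%): 1 each of ACVR1, ACVR2A, BMPR2, SMAD5 and SMAD4. With Phen none was higher (7.35%) and 4 were lower (20.2%): 1 each of ACVR2A, BMPR2, SMAD5 and SMAD4. The median difference of the 13 was −0.50, −0.72 and −0.46 in these 3 comparisons, beside −0.13, −0.11 and −0.19 over all expressed probe sets. The 3 comparisons share the 2DG array, as the comparisons of 2DG and of each compound with control share the control array.

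Probe sets of 1 gene often differed from each other in these comparisons. Of 3492 genes with at least 2 expressed probe sets, the differences of the highest and lowest were at least 1 apart in 6.84% to 8.59% for the 4 comparisons with control, and none of the 4 such genes described here (ACVR2A, SMAD1, SMAD5 and SMAD4) was among them. Within 2DG the share was 28.8% with CC, 26.4% with VST and 30.3% with Phen. SMAD5 was among them in all 3, and ACVR2A and SMAD4 with VST and Phen. The probe sets of SMAD1 stayed within that limit in all.

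The difference that 2DG made was also read with each compound on both sides, as 2DG with the compound minus the compound alone. For SMAD1 it was −0.00 without a compound, −2.47 with CC, −1.03 with VST and −0.63 with Phen. For ACVR2A it was 0.74 without a compound, 2.44 with CC, 0.73 with VST and 0.99 with Phen, and the VST value becomes −0.07 with poly-A scaling. For ACVR1 it was 0.82 without a compound and −0.28, −1.34 and −0.21 with one, and for BMPR2 0.42 and then −1.75, 0.24 and −1.70, in the order CC, VST and Phen. With poly-A scaling the BMPR2 value with VST was −0.56.

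In these comparisons with CC, 2 of the 13 were past 2-fold higher in 2DG (11.2% of all) and 4 lower (24.6%). With VST none was higher (6.39%) and 4 were lower (15.5%), and with Phen none was higher (8.11%) and 5 were lower (17.7%). The 2DG difference with a compound was at least 1 below that without it for 4 of the 13 with each compound, beside 26.5% of all expressed probe sets with CC, 20.6% with VST and 21.2% with Phen. It was at least 1 above for 2 with CC, both of ACVR2A (13.1% of all), and for none with VST (11.6%) or Phen (10.5%). Of these 2, 228416_at was expressed only through the 2DG+CC array.

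**Figure D3:**
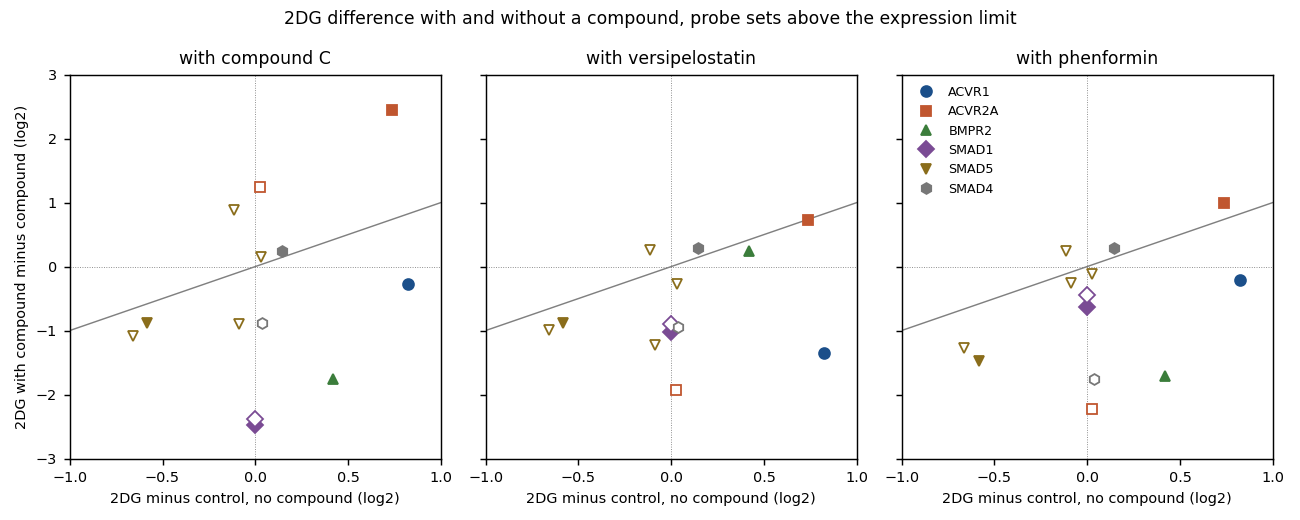
Log2 difference between 2DG and control without a compound (horizontal axis) and between 2DG with a compound and the compound alone (vertical axis), for the 13 expressed probe sets, 1 panel for each compound. Filled symbols are the brightest probe set of a gene, open symbols the others, and points on the grey line have the same 2DG difference with and without the compound. SMAD1 sits at −2.47 with CC and ACVR1 at −1.34 with VST, both under the line.

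Over the 8 arrays the gene patterns were set side by side by Pearson correlation, as a description of arrays that share their normalization. On their brightest probe sets ACVR2A and SMAD1 ran opposite (r = −0.90), SMAD5 and SMAD4 as well (r = −0.79), and BMPR2 and SMAD5 alike (r = 0.75). That SMAD4 probe set spans only 0.46. The second SMAD4 probe set, 235725_at, was lowest on the arrays with 2DG and a compound, where SMAD5 was also lowest. Among expressed genes that also span at least 1, the 3 with the pattern most like SMAD1 were FBXO34 (r = 0.99), MTERF4 (0.99) and ARHGAP5 (0.99). For BMPR2 they were RBBP9 (0.99), PCYOX1 (0.98) and GPR161 (0.96). For SMAD5 they were LBR (0.99), STC1 (0.99) and NHLRC2 (0.98), and for ACVR1 NFKBIL1 (0.95), PXK (0.92) and OSCAR (0.92). For ACVR2A they were RPS4Y1 (0.98), PABPN1 (0.98) and ZNHIT2 (0.96).

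Around these genes, 84 others of the pathway were taken in 10 lists, and 46 were expressed. At least 2-fold higher and lower were 2 and 3 of the 46 in 2DG against control, beside 3.06% and 1.90% of the 8429 genes. The counts were 3 and 5 with CC (3.88% and 2.70%), 2 and 2 with VST (2.46% and 2.48%) and 3 and 0 with Phen (2.66% and 2.17%). Within 2DG, 7 were higher and 16 lower with CC (8.33% and 25.4% of all genes), 7 and 16 with VST (4.09% and 20.0%), and 7 and 14 with Phen (4.84% and 21.8%). The counts of single lists below are read against the same shares. BAMBI and ID2 reached the limit of 6 only on the 3 arrays with 2DG and a compound, MSX2 only in 2DG+Phen and BMPR1B only in 2DG and 2DG+CC, so each is in its list through arrays on which it is high. The median over the 46 was −0.39, −0.64 and −0.46 in these 3, beside −0.23, −0.18 and −0.26 over all genes.

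The other receptor-activated SMADs were all expressed. SMAD9, the third SMAD that BMP receptors phosphorylate, read 6.78 in control, 5.74 with CC, 6.76 with VST, 7.05 with Phen, 5.81 in 2DG, 3.52 in 2DG+CC, 6.24 in 2DG+VST and 6.39 in 2DG+Phen. It was low with CC and in 2DG alone, and lowest in 2DG+CC, with differences from control of −1.04 for CC and −0.97 for 2DG, and of −2.29 for 2DG+CC against 2DG alone. For the TGF-β and activin SMADs, SMAD3 gave −2.44, −0.98 and −1.55 with CC, VST and Phen within 2DG, and SMAD2 gave 0.79, −0.14 and 0.20. A second SMAD3 probe set gave −1.84, 0.02 and −0.12. With poly-A scaling all 3 SMAD2 values lie under 0.

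Of 8 other type I and type II receptors 5 were expressed, and all 5 were at least 2-fold lower in 2DG+VST than in 2DG alone, against 2 with CC and 3 with Phen (20.0%, 25.4% and 21.8% of all genes were lower). In the order of CC, VST and Phen, TGFBR1, the TGF-β type I receptor, gave −2.49, −1.36 and −1.61, and ACVR2B, a type II receptor like ACVR2A, gave −1.17, −2.07 and −1.76. ACVR1B, an activin type I receptor, gave 0.07, −3.43 and −2.47. TGFBR2, the TGF-β type II receptor, gave −0.75, −2.60 and −0.63, and BMPR1B, the BMP type I receptor next to BMPR1A in sequence, 0.36, −1.80 and −0.92. A second expressed probe set of TGFBR2 gave 0.65, 1.496 and 2.64, the opposite sign. It reached the limit of 6 only in 2DG+VST and 2DG+Phen, so it is in the set through arrays on which it is high. On these brightest probe sets none of the 5 passed 2-fold in a comparison with control. Among co-receptors, 3 of 6 were expressed. RGMB, which binds BMP ligands, gave 1.92, 0.39 and 2.10, ENG (endoglin) −1.42, 0.06 and −0.23, and TGFBR3 (betaglycan) −1.13, −0.95 and −0.94, beside 1.10 for RGMB and −1.47 for TGFBR3 with VST against control. The other expressed RGMB probe sets gave 1.56, −2.65 and −0.78, and 2.05, 4.18 and 2.22. The latter reached the limit of 6 only in 2DG+VST, and its value in 2DG alone, 2.38, was under the background of 3.13. Its differences are printed as measured, and as bounds from background they would be smaller.

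Of 13 secreted antagonists measured, 4 were expressed, and FSTL1 and TWSG1 passed 2-fold in no comparison with control or within 2DG. NOG (noggin), which binds BMPs and keeps them from their receptors, read 6.98 in control, 5.90 with CC, 6.45 with VST, 8.10 with Phen, 6.50 in 2DG, 2.81 in 2DG+CC, 9.10 in 2DG+VST and 8.73 in 2DG+Phen. The value in 2DG+CC was under background, so the difference from 2DG alone was −3.26 or lower, against 2.60 with VST and 2.23 with Phen. FST (follistatin), which binds activins and some BMPs, differed by −1.37 in 2DG and by 1.24 with CC from control, and by 1.64, 1.15 and 0.99 in the 3 comparisons within 2DG, or 1.73, 0.35 and 0.15 on its second probe set.

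Of 15 expressed intracellular inhibitors of SMAD signalling, 2 were higher and none lower in 2DG than in control: SMAD7, an inhibitory SMAD (1.44), and BAMBI, a pseudoreceptor (1.24). Within 2DG, BAMBI was higher with each compound (2.69, 2.64 and 1.68 in the same order), and SMAD7 gave −0.03, 1.87 and 1.80. The SMAD corepressors SKIL and SKI were at least 2-fold lower with each compound (−3.21, −4.11 and −2.15 for SKIL, and −1.52, −2.73 and −1.91 for SKI), as was LEMD3, an inner nuclear membrane protein that binds receptor-activated SMADs (−1.26, −2.55 and −1.85). SKIL was higher in normal medium with CC (1.41) and with VST (1.22). The second SKIL probe set gave −0.07, 2.78 and 0.94 within 2DG, and the second SKI probe set −0.42, −2.37 and −1.50. That SKIL probe set was expressed only through the 2DG+VST array, where it read 6.95. Its high value with VST is therefore no separate reading against the first probe set. In all, 3 of the 15 were higher and 5 lower with CC, 2 and 7 with VST, and 2 and 8 with Phen, beside the shares of all genes given above. Of 5 expressed nuclear partners, RUNX2, the bone transcription factor, read 7.38 in 2DG and 3.57 in 2DG+CC (−3.82), RUNX3 gave −1.45, −1.05 and −0.75, and EP300, a histone acetyltransferase, 0.68, −1.39 and −0.72. Outside the SMAD branch, XIAP, which links BMP receptors to MAP3K7, gave −1.77, −2.13 and −2.45, but −0.67, 0.67 and 1.57 on 1 of its other 4 probe sets. That XIAP probe set was expressed only through the 2DG+Phen array, where it read 6.05, so it is in the set through that high reading. The kinase MAP3K7 itself gave 1.06, −0.94 and −0.72. The 2 expressed proteases that process ligands, FURIN and PCSK7, passed 2-fold in no comparison with control or within 2DG.

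Of 9 target genes 6 were expressed. ID1, ID2 and ID3 differed from control by −1.32, −1.20 and −2.70 with CC, and ID1 and ID3 by −1.99 and −1.77 in 2DG. Within 2DG, 1 of the 6 was higher and 1 lower with CC, and 3 were higher and 1 lower with VST and with Phen. Within 2DG, ID2 was higher with each compound (3.96, 3.58 and 3.08) and ID3 gave 0.02, 2.53 and 1.57. ID1 gave −0.19, 1.41 and 0.97 and MSX2 0.84, 0.96 and 1.60, and with poly-A scaling the ID3 and MSX2 values with CC also lie under 0. HEY1, a repressor of transcription, gave −1.09, −0.73 and −0.69, and the homeobox gene MSX1 −0.62, −1.57 and −1.24.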

How the data were processed

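The deposited table holds log2 intensities of 8 arrays, which the authors made with RMA (background correction, normalization between arrays and summary of each probe set), and the sources used here name neither the software that ran RMA nor its version. Differences were taken from these log2 values with no further step, in 10 comparisons of 1 array with 1 array. All 62 control probe sets were left out of counts, and 24 of them, for poly-A controls, were read on their own, as were the hybridization controls. Probe sets were named from the platform's annotation (41097 with 1 symbol, 1801 with several and 11777 with none, the latter 2 kinds naming no gene). Members, lists and limits were chosen with earlier results of these data known.

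Named are all members, every expressed gene of the receptor, co-receptor and SMAD lists, and from each other list up to 4 genes with the largest difference past 2-fold. Outside this rule, SMAD7, HEY1 and MSX1, which also passed 2-fold, were named. FSTL1, TWSG1, FURIN and PCSK7 were named as not past it. For members spanning at least 1, the 3 genes with the highest correlation were also named. Results were recomputed with thresholds of 1.5-fold and 3-fold, with 5, 7 or no limit for expression, and with centring, quantile normalization, poly-A scaling, other probe sets of a gene, and no probe sets ending in _s_at or _x_at. The calculation was tested on simulated data. The number of arrays limits the precision. Scripts ran in Python 3.11.15 with pandas 2.3.3, numpy 2.4.6 and matplotlib 3.10.9.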

Additional observations from a re-analysis of the deposited data

Results flagged for a closer look

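For 2 receptors the difference that 2DG made had the opposite sign on the deposited values with some compounds present, each on single arrays and with the change itself not tested. For ACVR1 the 2DG difference was 0.82 without a compound and changed by −1.10 with CC, −2.16 with VST and −1.03 with Phen. With each array centred on its median the 2DG difference became −0.01 with CC and −0.00 with Phen, and the changes −0.80 and −0.79, under 2-fold, against −1.94 with VST. With quantile normalization they were −0.99 with CC and −0.996 with Phen. For BMPR2 it was 0.42 without a compound, and the change was −2.17 with CC and −2.12 with Phen, against −0.18 with VST, where the sign stayed the same except with poly-A scaling, where the 2DG difference was −0.56. Its probe set was kept through the CC and 2DG arrays, whose high readings enter these values. The 5 changes past 2-fold share the control and 2DG arrays, so they are not separate readings.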

How the results depend on the processing

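With 1 array per condition no difference has an error, and values near background give bounds. BMPR2 and 1 ACVR2A probe set reached the limit on only 2 and 1 arrays. Of the member differences recomputed under 6 alternatives, 265 stayed within 0.5 (log2) of the reported value and on the same side of 2-fold and 75 did not. Under these alternatives none of the reported differences already past 2-fold changed sign, but ACVR1 and BMPR2 have no second expressed probe set. SMAD5, at −1.13 in 2DG+Phen against 2DG, read 0.49 on 205188_s_at and 0.23 on 205187_at, which the alternatives did not take singly. BMPR2, at −1.09 with VST against control, read 0.35 and 0.66 on 2 probe sets under the limit. Smaller differences did change sign on the second probe set within 2DG. ACVR2A went from 0.53 to −1.89 or lower with VST and from 0.57 to −1.84 or lower with Phen, and SMAD4 from 0.16 to −1.41 with Phen. The causes were not tested.

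Counted on the brightest probe set, the members past 2-fold were 0 in 2DG, 2 with VST against control, 3 with CC within 2DG and 2 with each other compound within 2DG, beside the shares of all genes given with the pathway lists. With a compound on both sides of 2DG they were 3 with CC and 2 each with VST and Phen, where 8.67%, 3.74% and 5.59% of all genes were higher and 26.4%, 16.6% and 18.9% lower. For the settings that follow no share of all genes is given, so the counts show only how they move with the setting. At 1.5-fold the members past the threshold were 2 in 2DG, 4 in 2DG+VST against 2DG, 4 against VST alone, and 4 in 2DG+Phen against Phen alone. At 3-fold they were 0, 0 and 0 for VST against control, within 2DG and with VST on both sides, and 1 and 1 for Phen within 2DG and on both sides. At an expression limit of 7 they were 1 for VST against control (ACVR1, without BMPR2), and 1 in 2DG+VST and 1 with Phen against 2DG, and 1 with Phen on both sides. Centring or quantile normalization gave 1 in 2DG+VST against 2DG, 1 against VST alone, and 1 in 2DG+Phen against 2DG. Quantile normalization gave 1 with VST against control, where BMPR2 came to −0.99, and poly-A scaling also 1, where ACVR1 came to 0.96. Poly-A scaling gave 4 in 2DG+VST against 2DG and 5 in 2DG+CC against CC alone. In 2DG+CC against 2DG it took ACVR2A under 2-fold and brought ACVR1 and SMAD5 past it on the lower side. The median over probe sets gave 1 in 2DG+Phen against 2DG and 1 against Phen alone, and 1 with VST on both sides. The second brightest probe set gave 0 with VST against control, since both genes counted there, ACVR1 and BMPR2, have none, and 1 with VST on both sides of 2DG, where ACVR1 again dropped out. Without probe sets ending in _s_at or _x_at there were 4 in 2DG+VST and 4 with Phen against 2DG, and 4 with Phen on both sides. The members whose 2DG difference changed past 2-fold numbered 1 with VST and 1 with Phen after centring or quantile normalization. With CC, ACVR1 also dropped under 2-fold there, at −0.80 and −0.99.

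For the other lists, too, no share of all genes is given at these settings, and the counts show only how they move. At 1.5-fold, genes of these lists past the threshold numbered 10 in 2DG, 14 with VST and 8 with Phen against control, and 32 in 2DG+Phen against 2DG. At 3-fold they were 2 in 2DG, 1 with CC, 0 with VST and 0 with Phen against control, and 12 with CC and 15 with VST within 2DG. At 2-fold, poly-A scaling gave 1 with Phen against control.

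No paired analysis was possible because each condition has 1 array.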
